A study of Mus musculus with 4 samples.

Results

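The genes described here are 9 genes of acute phase and innate secreted proteins, Saa3, Lcn2, Hp, C3, Cfb, Ptx3, Slpi, S100a8 and Hdc, of 36086 genes named on the arrays. They were taken by gene name alone: every probe whose name in the scanner files was one of these symbols entered, which gave 10 probes, with 2 probes for C3 and 1 for each of the other 8 genes. The study measured total RNA of RAW264.7 cells, an established mouse macrophage line, on 4 one-colour Agilent arrays. All cells carried a stably integrated vector for an artificial microRNA and had been selected with blasticidin as bulk cultures, not clones; the vector held either a scrambled control sequence or one targeting Linc-AAM, which is a lincRNA. Cells of each line were kept for 4 h in DMEM medium alone or with 50 µg/mL AEPS, a polysaccharide from the roots of Actinidia eriantha. Line and medium together thus made 4 groups (scramble or knockdown, each in DMEM or under AEPS), with 1 array each.

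Acute phase proteins are made in large amounts during inflammation, chiefly by the liver in response to cytokines such as interleukin-6 and interleukin-1, and several are also made by macrophages at the site of inflammation. They bind microbes, withhold iron from them, feed the complement cascade or limit damage by proteases. In macrophages, agonists of Toll-like receptors switch on many of these genes through NF-kB and, after new protein synthesis, through the C/EBP factors and inhibitor-of-kB-like co-activators. Of the 9 genes, most encode proteins secreted into plasma or mucosal fluid. S100a8 encodes a cytosolic protein that cells release on activation, and Hdc encodes an intracellular enzyme whose product, histamine, is secreted.

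Each array held 59305 spots other than controls, for 55681 probes, of which 53.4% to 58.0% of spots were well above background and 0 were saturated. Values are the scanner's processed intensity divided by that array's 75th percentile, so a signal of 1 is the signal at the 75th percentile. A signal compares 1 gene between arrays, not 2 genes with each other. Macrophage markers (10 of 10 tested, 9 of them above background on all 4 arrays) had summed signals of 881 to 961. Of the fibroblast markers, Col1a1 and Col1a2 rose under AEPS with the genes described here, by 2.02 ± 0.19 and 0.71 ± 0.12 (log2, SE, in the limma fit described below; the reading of Col1a1 for knockdown in DMEM was not well above background), while Col3a1 and Pdgfra were above background on 0 arrays. Dcn was tested and did not pass (0.83 ± 0.34, limma adjusted p = 0.191). It was above background only on the arrays of the scramble line (0.0413 in DMEM and 0.0474 under AEPS). The summed signal of the 5 fibroblast markers was 0.127 to 0.172 in DMEM and 0.271 to 0.341 under AEPS, and their part in the results was not tested. Of the hepatocyte markers, 5 of 6 (Alb, Apoa1, Apob, Cps1 and Ttr) were above background on 0 arrays, and Tat was above background on all 4 (0.188 to 0.222). The targeted RNA could not be used to check the labels, since 0 probes carried the name Linc-AAM. The line labels themselves conflict between the deposited files: each column of the value table ranked the probes as the scanner file of the other line did (Spearman's rho 1 across 55657 probes, against 0.969 with the file of its own label). The lines are therefore named "labelled scramble" and "labelled knockdown" after the scanner files, and every difference between the lines below changes sign if the value table's labels hold. The comparison of AEPS with DMEM over both lines does not depend on them.

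AEPS against DMEM asks what the polysaccharide does to these genes. In a limma fit over all 4 arrays with line and treatment as terms, 7 of the 8 genes tested rose under AEPS and 0 fell, at a Benjamini-Hochberg adjusted p under 0.05 over 22387 genes. Of all genes tested, 7.27% rose and 7.1% fell. The genes that rose were Hdc, Saa3, Slpi, Lcn2, Cfb, C3 and S100a8, in order of their fitted effect, from 8.97 to 1.04 on the log2 scale. Hp did not pass, and Ptx3 was above background on 0 arrays and could not be tested. Each of the 7 was higher under AEPS in 2 of 2 lines, and for all of them but Cfb both AEPS arrays were above both DMEM arrays. By size alone, 6 of 8 genes were at least 2-fold higher with the scramble label (6.7% of all genes were higher and 5.22% lower) and 7 of 8 with the knockdown label (4.64% higher and 3.48% lower), S100a8 being the one past 2-fold in the latter alone. The median effect was 2.90 over the 8 genes and 0.069 over all genes tested (-0.034 with quantile normalization). The fit has 2 arrays per treatment and 1 residual degree of freedom, with the spread shared across genes by limma. That residual is the difference in AEPS response between the lines, so a gene whose response differs between them is less easily called. It is no spread between replicate cultures, and the labels do not describe the cultures as separate experiments. In RNA from whole cultures, fewer cells of a kind and less RNA per cell cannot be told apart.

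**Figure D1:**
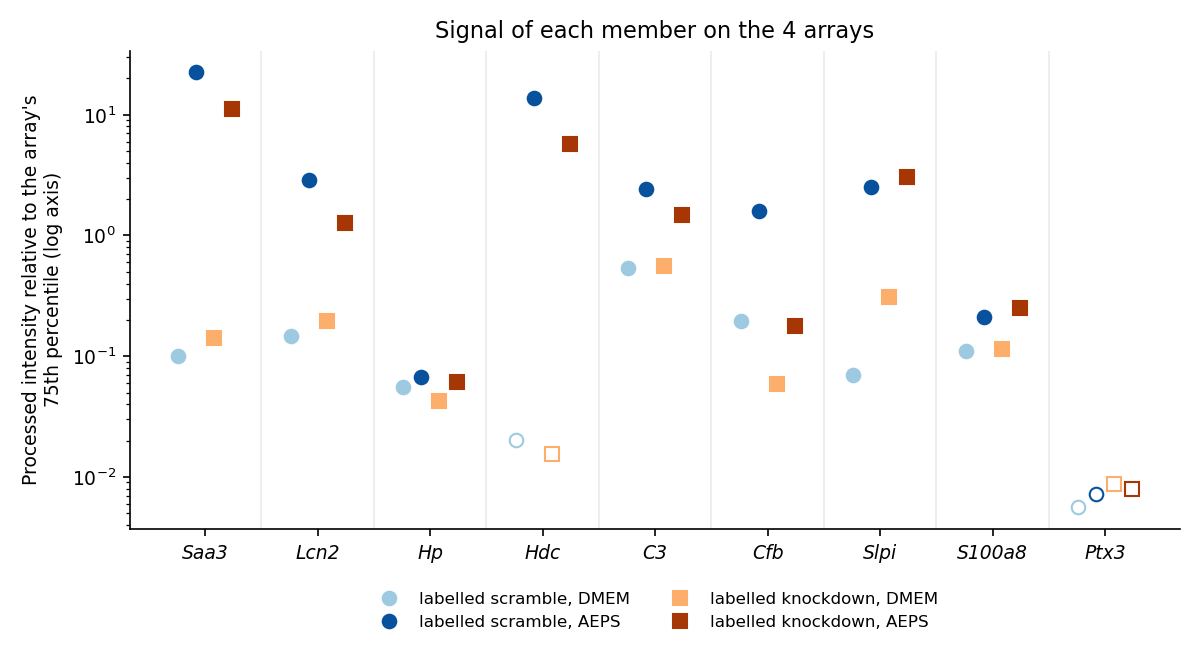
Processed intensity relative to the array's 75th percentile (log axis) for each of the 9 genes on the 4 arrays, 1 point per array, with circles for arrays labelled scramble, squares for arrays labelled knockdown, light points for DMEM and dark points for AEPS; open points were not well above background. Saa3 runs from 0.100 in DMEM to 22.4 under AEPS, the points of Hp lie close together, and all 4 points of Ptx3 are open.

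Saa3 encodes a serum amyloid A protein that mouse macrophages and fat make outside the liver. Its signal was 0.100 (DMEM) and 22.4 (AEPS) for the line labelled scramble, and 0.141 (DMEM) and 11.1 (AEPS) for the other line. Both AEPS arrays were far above both DMEM arrays, and all 4 readings were well above background. Saa3 was 223-fold higher under AEPS with the scramble label and 78.5-fold higher with the knockdown label. The fitted effect was 7.05 ± 0.40 on the log2 scale (SE; 95% interval 5.91 to 8.19, limma adjusted p = 0.00847), the 15th largest rise of 22387 genes.

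Lcn2 encodes lipocalin 2, which captures the iron carriers that bacteria release. Its signal was 0.148 in DMEM and 2.88 under AEPS with the scramble label, and 0.197 and 1.27 with the knockdown label. The readings in DMEM lay close to each other, and the AEPS reading labelled scramble was the highest. The increase was 19.4-fold with the scramble label and 6.45-fold with the knockdown label, with a fitted effect of 3.49 ± 0.42 (SE, limma adjusted p = 0.0237).

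Hp encodes haptoglobin, which binds haemoglobin set free from red cells. Its signal stayed low on every array, at 0.0559 (DMEM) and 0.0667 (AEPS) for the line labelled scramble, and 0.0427 (DMEM) and 0.0606 (AEPS) for the other line. The AEPS arrays were both higher than the DMEM arrays, by a small step. The fitted difference of 0.38 ± 0.13 (SE; 95% interval 0.0097 to 0.75) had a limma p of 0.0465 and an adjusted p of 0.142, so the interval allows a rise of up to 0.75 on the log2 scale.

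Among the complement genes, C3 encodes the protein on which all complement pathways converge, and Cfb encodes factor B, the protease subunit of the alternative pathway's C3 convertase. C3 had a signal of 0.536 in DMEM and 2.44 under AEPS with the scramble label, and 0.554 and 1.47 with the knockdown label. The DMEM readings were nearly equal. These are means over a probe printed in 10 spots (9 used on the array of scramble under AEPS, where 1 was an outlier), whose SD over spots was 0.0256 to 0.0742 on the log2 scale, a technical spread within an array. C3 rose 4.55-fold with the scramble label and 2.65-fold with the knockdown label, with a fitted effect of 1.80 ± 0.23 (SE, limma adjusted p = 0.0256).

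The choice of probe decided the call for C3. The other C3 probe, printed once, lies near the first on chromosome 17 (the 10-spot probe at chr17:57343416-57343475 and the other at chr17:57343678-57343737, in mm9, the build of the scanner files). It read 0.704 (DMEM) and 1.57 (AEPS) for the line labelled scramble, and 0.785 (DMEM) and 1.17 (AEPS) for the other line. Its steps under AEPS were 1.16 and 0.57 on the log2 scale, against 2.19 and 1.41 for the 10-spot probe, in the same direction. The fitted effect was 0.87 ± 0.19 (SE) and did not pass (limma adjusted p = 0.0643, fitted over probes).

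**Figure D2:**
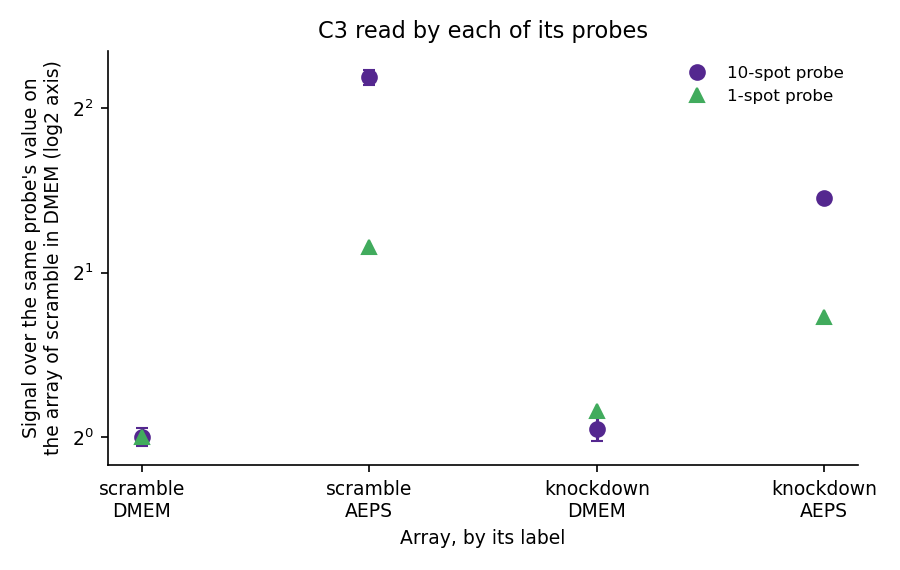
Signal of the C3 probes on each array, divided by the same probe's signal on the array of scramble in DMEM (log2 axis); purple circles are the 10-spot probe with its SD over spots, and green triangles are the 1-spot probe. Both probes are higher on the AEPS arrays, the 1-spot probe by less.

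Of the 7 genes with a measured difference between the lines in DMEM, Cfb alone differed by over 2-fold in both media. With background corrected by normexp, the DMEM difference of Cfb was -0.58 on the log2 scale, short of 2-fold. Its signal was 0.195 in DMEM and 1.58 under AEPS with the scramble label, and 0.0593 and 0.178 with the knockdown label. Thus the AEPS reading labelled knockdown lay below the DMEM reading labelled scramble, although AEPS was above DMEM within each line. Cfb rose 8.14-fold with the scramble label and 3.0-fold with the knockdown label, and the fitted effect was 2.30 ± 0.39 (SE, limma adjusted p = 0.0403). Its probe spans 357 genomic positions for 60 bases (chr17:34993502-34993858, mm9), so it crosses at least 1 intron and reads spliced RNA.

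Slpi and S100a8 encode proteins of neutrophil and mucosal defence. Slpi encodes an inhibitor of neutrophil elastase and other serine proteases. Its signal was 0.0701 (DMEM) and 2.54 (AEPS) for the line labelled scramble, and 0.307 (DMEM) and 3.05 (AEPS) for the other line. The lines were apart in DMEM and close under AEPS. The increase was 36.3-fold with the scramble label and 9.93-fold with the knockdown label, with a fitted effect of 4.25 ± 0.49 (SE, limma adjusted p = 0.0223).

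S100a8 encodes a calcium-binding subunit of calprotectin. Its signal was 0.111 in DMEM and 0.211 under AEPS with the scramble label, and 0.115 and 0.253 with the knockdown label. The step was small beside those of Saa3 or Slpi and similar in both lines, 1.91-fold with the scramble label and 2.21-fold with the knockdown label. It passed the test, with a fitted effect of 1.04 ± 0.13 (SE, limma adjusted p = 0.0236). S100a9, which encodes the partner subunit of calprotectin, was above background on 0 arrays. Ptx3, the gene of the long pentraxin that marks microbes for uptake, read 0.00561, 0.00728, 0.00865 and 0.00799 on the 4 arrays in the same order. The lowest signal that counted as above background was 0.0241 to 0.0381, so a change of Ptx3 was not detectable at this signal.

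Hdc encodes histidine decarboxylase, the enzyme that makes histamine. Its signal was 0.0202 (DMEM) and 13.8 (AEPS) for the line labelled scramble, and 0.0154 (DMEM) and 5.68 (AEPS) for the other line. Neither DMEM reading was well above background, and both AEPS readings were. Hdc was therefore at least 571-fold higher under AEPS with the scramble label and at least 149-fold higher with the knockdown label, taking the lowest signal above background on the dim array as the bound. The fitted effect of 8.97 ± 0.25 (SE, limma adjusted p = 0.00651) ranked 7th among all rises, but its size rests on the DMEM readings and is no bound. Hdc also passed the filter on dim genes only through its AEPS arrays; the other 7 genes tested were above background on all 4 arrays. Mast cells are the classical source of Hdc, and 6 of 8 mast cell markers (Cma1, Cpa3, Fcer1a, Kit, Ms4a2 and Tpsab1) were above background on 0 arrays, with a summed signal of all 8 of 0.332 to 0.478. Tpsb2, in contrast, was above background on all 4 arrays (0.291 to 0.373) and made up most of that sum. Mcpt4 was above background only on the array labelled knockdown under AEPS (0.0566).

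**Figure D3:**
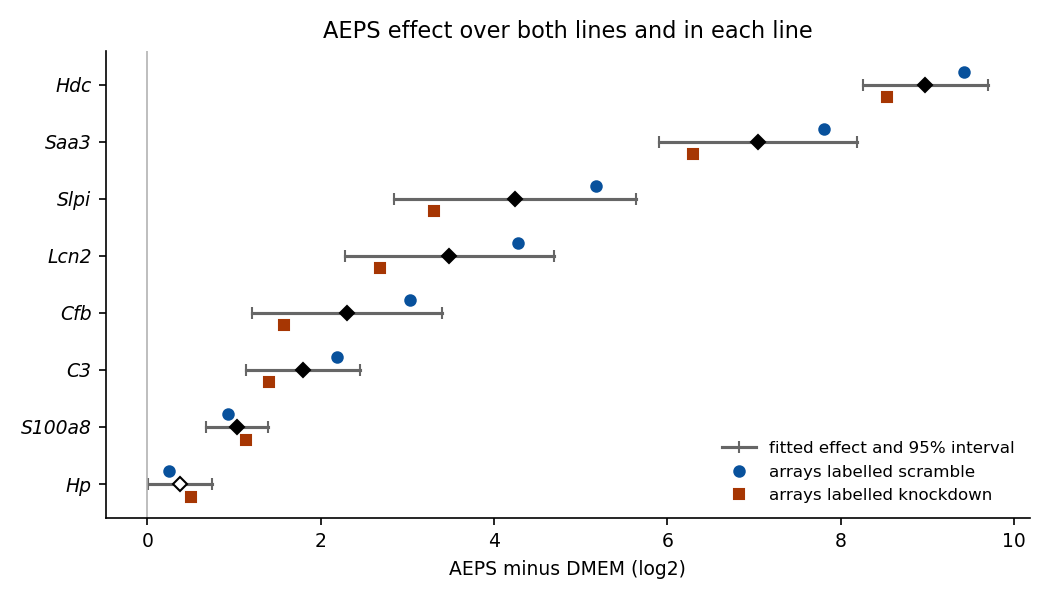
AEPS minus DMEM on the log2 scale for the 8 genes tested, with the fitted effect over both lines as a diamond (filled where the limma adjusted p was under 0.05) and its 95% interval as a bar; blue circles and red squares are the differences within the arrays labelled scramble and knockdown. The fitted effects run from 0.38 for Hp to 8.97 for Hdc, and the points of Hdc use DMEM readings that were not well above background.

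The calls of Saa3 and Hdc held with every alternative processing in which they were tested (9 for Saa3 and 8 for Hdc, which is left out where all 4 arrays must be above background). Without a filter on dim genes, which takes the genes tested to 36086, the calls of C3, Cfb, Lcn2, S100a8 and Slpi were lost (limma adjusted p = 0.0776 to 0.125), and with treatment alone in the model those of Cfb and Slpi were lost (adjusted p = 0.324 and 0.0610). Background correction by normexp left all 7 calls and shrank the effects, for example to 0.75 for C3, 0.62 for S100a8, 5.89 for Saa3 and 5.85 for Hdc.

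The probe sequences show what was read for some of these genes. They are printed as the scanner files list them, in lower case, for Saa3 and S100a8 (the largest and smallest called rises measured above background on all 4 arrays), for Cfb and for the C3 probe that did not pass; the placement of the probes in exons or untranslated regions was not analysed here. The Saa3 probe lies at chr7:53970389-53970448 and the S100a8 probe at chr3:90473778-90473837 (mm9).
Saa3: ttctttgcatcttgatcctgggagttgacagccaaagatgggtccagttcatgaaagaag
Cfb: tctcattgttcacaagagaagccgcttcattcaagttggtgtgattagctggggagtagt
C3: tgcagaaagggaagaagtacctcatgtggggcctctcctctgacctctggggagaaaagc
S100a8: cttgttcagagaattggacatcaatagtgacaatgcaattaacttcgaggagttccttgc
The probes of the other genes lie at chr2:32240199-32240258 for Lcn2, chr8:112099045-112099104 for Hp, chr3:66029245-66029304 for Ptx3, chr2:164179849-164179908 for Slpi and chr2:126419516-126419575 for Hdc.

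The promoters of the genes described here, whether called or not, were searched for letters that known inflammatory factors prefer. RefSeq (GRCm38.p6) gave the 250 bases before the start of 7 of the 9 genes, all but Hp and Cfb. The C/EBP-type letters TTGCNNAA, read on both strands, occurred in 5 of the 7 windows and in 9.57% of 32817 promoters of the same length. The match began 99 bases before the start in Saa3, 216 in Lcn2, 45 in C3, 57 in Ptx3 and 241 in Slpi. The windows of Saa3, Lcn2, C3, Slpi and Ptx3 are printed to show the match, which is in capitals, and that of Hdc as the gene with the largest effect and no match. All read 5′ to 3′ on the gene's own strand and end at the base before the start.
Saa3 (chr7:46715677-46715926, minus strand): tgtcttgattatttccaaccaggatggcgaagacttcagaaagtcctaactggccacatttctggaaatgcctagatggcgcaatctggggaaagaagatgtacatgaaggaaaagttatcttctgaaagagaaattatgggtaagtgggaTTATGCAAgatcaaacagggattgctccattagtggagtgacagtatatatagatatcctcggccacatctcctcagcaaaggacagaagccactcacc
Lcn2 (chr2:32387740-32387989, minus strand): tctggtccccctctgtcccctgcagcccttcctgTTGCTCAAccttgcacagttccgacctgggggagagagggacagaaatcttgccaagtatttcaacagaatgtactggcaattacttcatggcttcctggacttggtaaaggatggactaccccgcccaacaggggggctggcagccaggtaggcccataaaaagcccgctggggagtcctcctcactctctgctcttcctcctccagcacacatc
C3 (chr17:57228137-57228386, minus strand): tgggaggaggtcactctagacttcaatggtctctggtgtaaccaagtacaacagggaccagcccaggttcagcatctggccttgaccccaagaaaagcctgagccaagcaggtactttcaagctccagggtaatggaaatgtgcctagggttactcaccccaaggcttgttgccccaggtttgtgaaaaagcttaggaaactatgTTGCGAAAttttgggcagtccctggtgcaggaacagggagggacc
Slpi (chr2:164356508-164356757, minus strand): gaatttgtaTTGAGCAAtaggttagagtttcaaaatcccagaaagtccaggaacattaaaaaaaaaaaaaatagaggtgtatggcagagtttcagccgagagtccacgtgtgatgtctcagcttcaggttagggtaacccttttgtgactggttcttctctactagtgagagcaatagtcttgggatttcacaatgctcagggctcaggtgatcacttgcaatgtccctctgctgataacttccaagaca
Ptx3 (chr3:66219637-66219886, plus strand): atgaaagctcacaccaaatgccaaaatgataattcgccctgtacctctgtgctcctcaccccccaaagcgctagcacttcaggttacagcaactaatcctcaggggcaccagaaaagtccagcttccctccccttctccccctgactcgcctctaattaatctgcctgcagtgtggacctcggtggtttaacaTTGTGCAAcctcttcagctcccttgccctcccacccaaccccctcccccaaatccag
Hdc (chr2:126618679-126618928, minus strand): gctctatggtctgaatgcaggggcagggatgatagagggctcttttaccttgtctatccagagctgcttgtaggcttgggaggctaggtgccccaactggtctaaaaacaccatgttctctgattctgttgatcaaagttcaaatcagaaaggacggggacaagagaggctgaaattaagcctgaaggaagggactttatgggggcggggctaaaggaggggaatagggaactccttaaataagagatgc
Ptx3, which has a match, was not detected, and Hdc, which has none, had the largest effect. The NF-kB-type letters GGGRNNYYCC (R is A or G, Y is C or T) occurred in 0 of the 7 windows, against 7.25% of all promoters. The STAT-type letters TTCNNNGAA and the AP-1-type letters TGANTCA also occurred in 0, against 7.01% and 6.75%. Other forms of these sites were not searched. A TATAAA box was found in S100a8 alone of the 7, 30 bases before the start, and in 12.4% of all promoters. The 5 searches gave at most 1 match in each window, so no matches overlapped. A match is a description of these letters in this window and shows no binding.

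The comparison of the lines asks whether cells with the vector against Linc-AAM express these genes differently. Over both media, limma called 0 of the 8 genes between the lines, against 0.715% of all genes tested. At an unadjusted p under 0.05 there were 2, Cfb and Hdc, both lower with the knockdown label. The share of all genes at that unadjusted level was not counted, so the count is not read as a result about these genes. For Cfb the fitted line difference was -2.43 ± 0.39 (SE; 95% interval -3.53 to -1.34, limma adjusted p = 0.134), and with an intensity trend in the variance model the adjusted p was 0.0017. For Hdc it was -0.84 ± 0.25 (SE, limma adjusted p = 0.297), with DMEM readings below background. The interval of Slpi ran from -0.20 to 2.59 and that of Saa3 from -1.40 to 0.88, so differences of 2-fold or more are within both.

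Within each medium the groups hold 1 array, so the differences have no test and a step of 2-fold was used to describe them. In DMEM, 1 of 7 genes with a measured difference was higher on the array labelled knockdown and 1 was lower, where 2.36% of all genes were higher and 1.51% lower. Slpi was the higher gene, by 4.37-fold (2.13 on the log2 scale), and Cfb the lower, by -1.71. Under AEPS, the array labelled knockdown was lower for 4 of 8 genes and higher for 0, where 2.69% of all genes were lower and 1.85% higher. The 4 were Cfb (-3.16), Hdc (-1.28), Lcn2 (-1.18) and Saa3 (-1.01), the last at the edge of the 2-fold step. The other 4 differed by -0.73 for C3, -0.14 for Hp, 0.26 for S100a8 and 0.26 for Slpi.

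**Figure D4:**
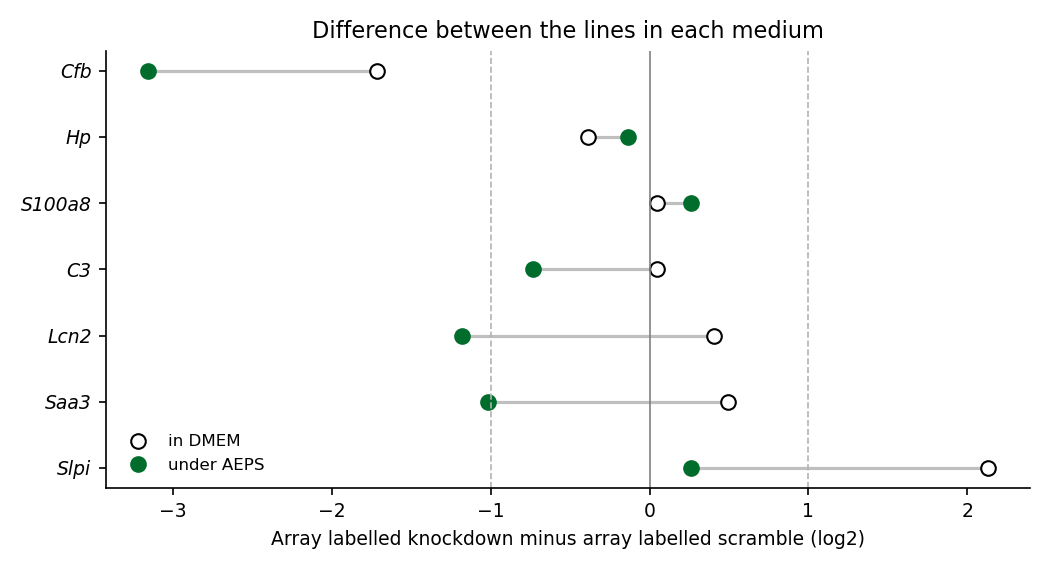
Difference between the array labelled knockdown and the array labelled scramble (log2) in DMEM (open circles) and under AEPS (green circles) for the 7 genes above background on all 4 arrays; dashed lines mark 2-fold. Cfb lies below 0 in both media, and Saa3, Lcn2 and C3 change from above 0 in DMEM to below 0 under AEPS.

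The size of the AEPS response differed between the lines for part of the genes, again without a test, since a model with an interaction leaves 0 residual degrees of freedom. Among the 7 genes above background on all 4 arrays, 4 had a response at least 2-fold smaller on the arrays labelled knockdown and 0 a larger one, where 1.66% of all genes above background on all 4 arrays had a smaller and 0.53% a larger one. Those were Slpi (5.18 with the scramble label and 3.31 with the knockdown label, log2), Lcn2 (4.28 and 2.69), Saa3 (7.80 and 6.30) and Cfb (3.03 and 1.58). For Slpi the lines were 2.13 apart in DMEM and 0.26 apart under AEPS, and for Cfb -1.71 and -3.16. C3 had a response smaller by less than 2-fold (2.19 and 1.41), and those of S100a8 (0.93 and 1.14) and Hp (0.25 and 0.51) were slightly larger on the arrays labelled knockdown. The 1.66% is taken over genes that respond to AEPS and genes that do not. A smaller response is not particular to the genes described here. It was also seen for Il1b (13.2 and 10.3), Tnf (5.75 and 4.09) and Il1rn (4.23 and 2.91), while Itgax (2.10 and 2.59) and Mt2 (1.92 and 2.08) went the other way. These values share the same 4 arrays with the comparisons above and are not separate evidence. The difference in response is also the residual from which the limma fit takes its spread. In the value table's labels the responses of Slpi, Lcn2, Saa3 and Cfb are larger, not smaller, on the knockdown arrays.

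Related genes were described from 8 lists, with the genes above left out. The counts of each list are to be read beside all genes tested, of which 7.27% rose and 7.1% fell. Cp, Wfdc21, Fpr1, Fpr2, Il1a and Il6 were above background on the AEPS arrays alone. They passed the filter on dim genes only through those arrays, and the counts of their lists include them. Of 26 acute phase plasma proteins, 10 could be tested, 7 rose and 0 fell, with a median effect of 1.35 against 0.069 over all genes. Saa1, a serum amyloid A gene of the liver and a close copy of Saa2, which a probe may not tell apart, read 0.585 and 6.70 with the scramble label and 0.603 and 3.78 with the knockdown label, in DMEM and under AEPS, a rise of 3.08 ± 0.25 (log2, SE, limma adjusted p = 0.0134). Il1rn, which encodes the interleukin-1 receptor antagonist, rose by 3.57 ± 0.36, and the metallothionein genes Mt2 and Mt1 rose by 2.0 ± 0.12 and 0.70 ± 0.12. A further 15 genes of the list were above background on 0 arrays, among them Crp, Fgb, Fgg, Saa2, Hamp and the Orm genes.

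Of 31 other complement genes on the arrays 17 were tested, 2 rose and 1 fell, where 7.27% and 7.1% of all genes did, and the median was 0.18 against 0.069. C5ar1, the receptor of the C5a peptide, rose by 2.19 ± 0.17 and Serping1, the C1 inhibitor, by 0.70 ± 0.12, while C5ar2 fell by 0.66 on the log2 scale. Properdin (Cfp), which stabilises the C3 convertase, and Cr1l, a complement regulator, were the brightest and differed by 0.17 and 0.066, which did not pass. Between the lines, limma called Clu (clusterin) higher by 2.25 ± 0.11 (adjusted p = 0.0245) and C1ra lower by -1.51 ± 0.11 (adjusted p = 0.0418) on the arrays labelled knockdown, both named after their values were seen.

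Of 20 granule and antimicrobial genes, 10 were tested, 3 rose and 0 fell (median 0.25), where 7.27% and 7.1% of all genes did. Wfdc21 and Wfdc17, which like Slpi encode whey acidic protein domains, rose by 4.25 ± 0.53 and 2.87 ± 0.17, and Chil3, a chitinase-like protein, by 0.92 ± 0.17, with a reading for knockdown in DMEM that was not well above background. Wfdc21 was above background on the AEPS arrays only. The lysozyme genes Lyz1 and Lyz2 differed by 0.12 and -0.21 and did not pass. Of the neutrophil markers, 6 of 9 on the arrays (Cxcr2, Ltf, Mpo, Ngp, Retnlg and S100a9) were above background on 0 arrays. Elane (2.04 to 2.74), Camp (0.0700 to 0.0963) and Csf3r were above background on all 4 arrays. The summed signal of 109 to 127 came almost wholly from Csf3r (106 to 125), the gene of the G-CSF receptor. Of 13 other S100 genes, 9 were tested and 0 passed the limma test in either direction, with a median of 0.039. At an unadjusted p under 0.05 there was 1, but many of all genes reach that level under AEPS. Hp, with an unadjusted limma p of 0.0465, had rank 7352 by p of 22387 genes, so the 1 is not read as a change. The brightest, S100a4 and S100a6, differed by 0.039 and -0.029.

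Among genes of receptors for the proteins above or their products, 14 of 19 were tested, 4 rose and 1 fell (median 0.18). Of all genes, 7.27% rose and 7.1% fell. Fpr1 and Fpr2, formyl peptide receptors of which Fpr2 binds serum amyloid A, rose by 5.16 ± 0.35 and 4.86 ± 0.53 in the fit, from DMEM readings not well above background. Itgax, the alpha chain of complement receptor 4, rose by 2.34 ± 0.17 and Tlr2 by 1.57 ± 0.11. Tlr4, at which S100a8 is known to signal, fell by 1.68 on the log2 scale (limma adjusted p = 0.0444; named after its value was seen). Cd36, a scavenger receptor, differed by 0.017.

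For histamine, 5 of 9 genes of its receptors, transport and breakdown were tested and 0 passed the limma test in either direction (median 0.21). At an unadjusted p under 0.05 there was 1, which is not read as a change, as for the S100 genes above. Hrh4, a histamine receptor of blood cells, read 0.471 and 2.0 with the scramble label and 0.325 and 0.599 with the knockdown label, in DMEM and under AEPS, and did not pass (1.48 ± 0.33, limma adjusted p = 0.0653). Aldh7a1, an aldehyde dehydrogenase, differed by 0.33. Of 18 iron genes, 15 were tested, 3 rose and 0 fell (median 0.18), where 7.27% and 7.1% of all genes did. The 3 were Cp, the plasma ferroxidase ceruloplasmin (1.74 ± 0.20 in the fit, with DMEM readings not well above background), Slc11a1, the metal transporter of phagosomes (1.48 ± 0.11), and Slc39a14, a zinc and iron importer (1.40 ± 0.12). The ferritin genes Fth1 and Ftl1 differed by 0.20 and 0.17 and did not pass.

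Of 26 inducers and regulators of acute phase genes, 24 were tested, 15 rose and 2 fell (median 1.84), where 7.27% and 7.1% of all genes did. Il1a and Il1b rose by 11.95 ± 0.28 and 11.78 ± 0.76 and Il6 by 8.22 ± 0.61 in the fit, where the DMEM readings of Il1a and Il6 were too dim to stand above background. Tnf rose by 4.92 ± 0.44 from readings of 6.27 and 11.1 to 337 and 189 on the arrays labelled scramble and knockdown. The C/EBP genes divided: Cebpd rose by 3.40 ± 0.17 and Cebpb by 0.78 ± 0.12, while Cebpa fell by 1.21 and Cebpe by 0.92 on the log2 scale, the last 3 named after their values were seen. All of these passed the limma test.

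**Figure D5:**
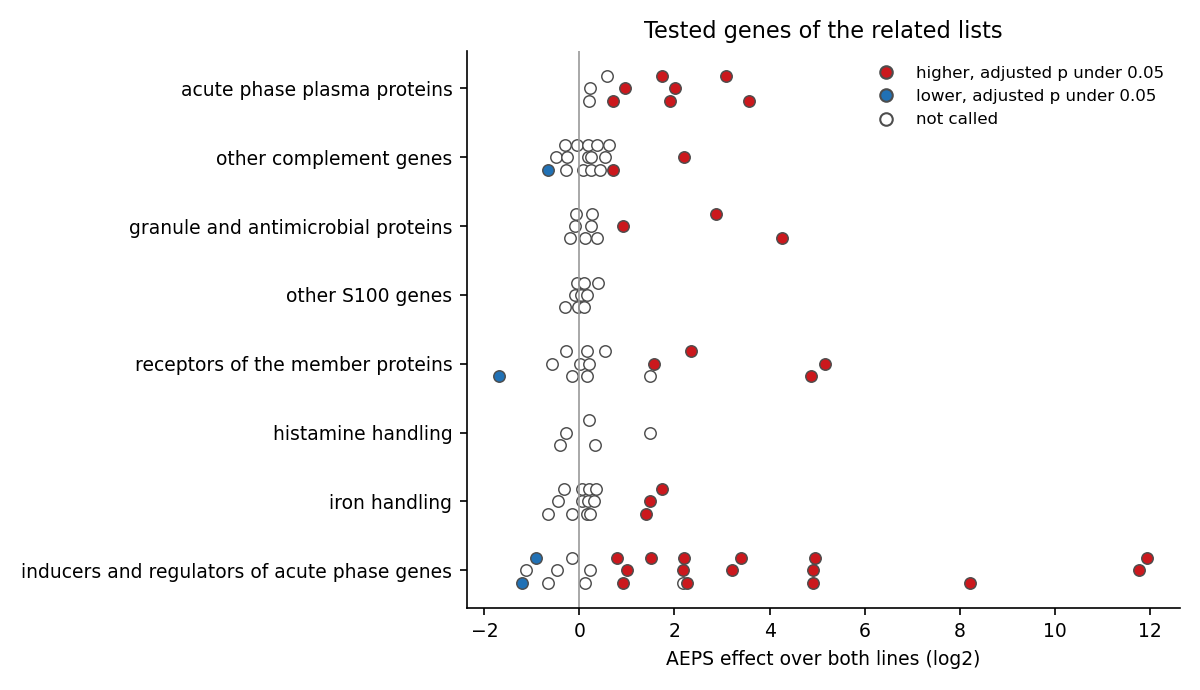
AEPS effect over both lines (log2) for each tested gene of the 8 lists, with red points higher and blue points lower at a limma adjusted p under 0.05, and open points not called; points are spread vertically for legibility. The other S100 genes and the histamine genes hold open points alone, and the inducers reach 11.95 for Il1a, whose DMEM readings were not well above background.

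Genes with the most similar pattern were found as those whose 4 log2 values, after taking off their mean, lay nearest by Euclidean distance, among the 13161 genes with an official-style symbol that were above background on 2 or more arrays. Saa3 lay nearest to Il1f6 (distance 0.404) and Gstt4 (0.482), and Lcn2 to Il1rn (0.170) and Dlgap2 (0.233). C3 lay near Tspyl3 (0.116), and the nearest genes were for Cfb Hunk (0.206) and Vmn1r219 (0.550) and for Slpi Arg2 (0.348) and Plat (0.763). S100a8 was nearest to Camk2d (0.0774) and Itgb2 (0.0960), Hdc to Ccl5 (0.359) and Cish (0.806), and Hp to Snrpb2 (0.0328) and Mrpl1 (0.0388). Arg2 shared with Slpi its higher DMEM value on the array labelled knockdown, at -0.82 around its mean against -3.10 on the array labelled scramble. Hunk was like Cfb lower on the array labelled knockdown in DMEM (-2.16 against -0.23) and under AEPS (-0.46 against 2.85). Over 4 arrays a small distance is a description only.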

How the data were processed

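Per the labels' protocols and the file headers, total RNA was labelled with Cy3 and each array was read with Agilent Feature Extraction 10.7.1.1, which made the deposited processed intensity per spot. The deposited value table holds log2 values (slope 0.993 to 1.01 against log2 scanner intensity) with a median of 4.69 in every column; its normalization and centring are not given in the sources used here. Spots marked as outliers were left out, spots of a probe averaged on the log2 scale, each array centred on its 75th percentile, and the brightest probe taken per gene. The 22387 genes whose signal was well above background on at least 2 arrays were fitted with limma 3.58.1 in R 4.3.3, tested on simulated data. Probe names were updated by RefSeq accession or symbol for 29676 of 55681 probes and kept otherwise. The genes and lists were chosen with earlier results of these data known. Named from each list were up to 2 genes of highest mean signal and up to 3 of largest called effect, and 2 nearest genes per member by pattern, of which 1 is not reported here. Alternatives changed normalization, background, probe choice, filter, model and source of values.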

Additional observations from a re-analysis of the deposited data

Results flagged for a closer look

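The lines differed in opposite directions in the media for 3 genes above background on all 4 arrays. With 1 array per group, the difference between media was not tested. Saa3 was 0.49 higher on the log2 scale on the array labelled knockdown in DMEM and -1.01 under AEPS. Lcn2 was 0.41 in DMEM and -1.18 under AEPS. C3 was 0.048 in DMEM and -0.73 under AEPS.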

How the results depend on the processing

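The 7 genes called higher under AEPS became 2 without a filter on dim genes (Saa3 and Hdc). With normexp background, 4 genes and not 7 passed 2-fold on the arrays labelled knockdown under AEPS. Between the lines in DMEM it was 1 and not 2, Slpi alone, as Cfb then differed by -0.58. With an intensity trend, 1 and not 0 was called between the lines (Cfb, lower). Under the value table's labels every line difference past 2-fold changed sign: in DMEM Cfb 1.75 and Slpi -2.03; under AEPS Cfb 3.16, Hdc 1.19, Lcn2 1.18 and Saa3 0.94; the difference in response Saa3 1.36, Lcn2 1.53, Cfb 1.41 and Slpi 1.75. The fitted line effects were then C3 0.35, Cfb 2.46, Hdc 0.78, Hp 0.31, Lcn2 0.41, S100a8 -0.12, Saa3 0.26 and Slpi -1.16, and with normexp that of Hp was 0.12. Apart from the swapped labels, the cause was not tested. The other C3 probe, chosen after seeing the data, ended the call of C3. Over all genes, the higher and lower calls under AEPS were 1627 and 1589, and became 271 and 32 without a filter, 3623 and 3070 with the trend, 2498 and 2555 with normexp and 731 and 572 with treatment alone. Those between the lines were 87 and 73, and became 0 and 0 without a filter and with line alone, 579 and 707 with the trend and 392 and 298 with normexp. Quantile normalization, kept outlier spots, the mean of all probes and the filter on all 4 arrays moved no count of the 9 genes by over 1.5 times. No paired analysis was possible because each group holds 1 array, so the replicate number gives no block; line as a term already compares the media within each line. Leaving out an array leaves 0 residual degrees of freedom. The number of arrays limits all precision, and the dim readings of Hdc in DMEM and of Ptx3 limit what can be said of them.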
